A study of Rattus norvegicus with 6 samples.

Results

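The fatty acid oxidation and PPAR alpha target genes described here are 31 rat genes, chosen by name and found on the arrays through the RefSeq accessions of the probes. All 31 genes were represented, by 53 of the 61657 probes that were not controls. A probe counted as measured if every array of one group, or of both, read it as well above background, and 51 of the 53 probes met this. All 31 genes were therefore tested, among 11344 named genes. By the place where their products act, 13 were mitochondrial, 8 peroxisomal and 3 microsomal, and 7 handled lipids outside these chains or regulated them.

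Fatty acids are taken into the hepatocyte, bound by carrier proteins, activated to acyl-CoA and either stored or burned. Mitochondria burn most chain lengths through a carnitine shuttle and the beta-oxidation spiral, peroxisomes shorten very long chains, and microsomal P450 enzymes of the Cyp4a family oxidize the far end of the chain. PPAR alpha is a nuclear receptor that binds fatty acids and, paired with the retinoid X receptor, raises the transcription of many of these genes; in rat liver the Cyp4a and peroxisomal genes are among its best known targets.

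The livers came from 6 male Sprague-Dawley rats, bought at 5 weeks of age, with 1 one-colour Agilent array per rat. In the ADBAQ group, 3 rats had received 1-amino-2,4-dibromoanthraquinone, an anthraquinone dye intermediate, at 1000 mg/kg/day, and in the vehicle group 3 rats had received vehicle only. The labels name the vehicle as purified water in one place and as corn oil in another, and the length of treatment as 28 days in one place and 9 weeks in another. Corn oil is itself a source of fatty acids and water is not, and the labels do not settle which was given. The series gives no dose other than this one. All ADBAQ arrays lay on one slide read on one day and all vehicle arrays on another slide read on another day, so for every difference below slide, scan day and treatment cannot be told apart.

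Between 62.1% and 65.3% of the probes were well above background on an array. Pearson correlations between arrays over the tested probes were 0.992 to 0.993 within ADBAQ, 0.989 to 0.991 within vehicle and 0.975 to 0.981 between the groups. Hepatocyte markers were bright on all arrays, but 6 of 8 (Alb, Ttr, Apob, Serpina1, Fgb and Cps1) fell relative to the 75th percentile of the array and none rose. Of all genes, 11.3% fell and 9.05% rose. With spike-in scaling, described below, 5 of the 6 were positive, but all 6 (-0.45 to 0.41) lay below the median of all genes (0.72). Of the 8 markers, 3 were then called higher and 1 (Cps1) lower, against 78.8% and 1.65% of all genes. The summed linear signal of the 8 markers over the array's 75th percentile was 4602 to 4938 in ADBAQ and 6001 to 6534 in vehicle. In bulk liver, fewer cells of a type and less RNA per cell cannot be told apart, and the part of this shift in the falls given below was not tested. Values below are log2 signals relative to the 75th percentile of the array, so that 0 is the signal of a probe at that percentile and each step of 1 is a doubling. Differences are ADBAQ minus vehicle in log2 units ± SE (n = 3 rats per group), and a gene passed the test where limma's p, adjusted by Benjamini-Hochberg over all probes kept, was under 0.05.

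The genes moved in both directions. Cd36, a fatty acid uptake protein, rose, as did Acaa1b, a peroxisomal thiolase. By contrast, 3 enzymes of mitochondrial beta-oxidation (Acadm, Acadvl and Hadha), the peroxisomal isomerase Ech1 and the secreted lipase inhibitor Angptl4 fell relative to the 75th percentile. The other 24 genes did not pass the test, among them all 3 Cyp4a genes. Thus 2 of 31 genes rose, against 9.05% of all genes, and 5 of 31 fell, against 11.3% of all genes (20.3% of all genes passed in either direction), so that neither share of the 31 stands far from that of the array as a whole. The differences ranged from -0.88 to 1.24 with a median of -0.32, where the median of all genes was -0.04. The sign was negative in 23 genes and positive in 8 (Acaa1a, whose probes differed in sign, is counted as negative by its brightest probe, here and below). All 3 ADBAQ values lay below all vehicle values in 11 of 31 genes, where 25.1% of all genes did so, and above them in 2, where 21.2% of all genes did so (46.3% of all genes separated in either direction).

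These directions depend on what each array is scaled to. The 75th percentile lay at a signal of 570 to 643 in ADBAQ and 433 to 461 in vehicle, while the log2 signal of the spike-in controls averaged 12.8 to 12.9 in ADBAQ and 13.1 to 13.2 in vehicle. Scaling to these controls, RNAs of known amount added to each sample, put the median of all genes at 0.72 in place of -0.04, and under that scaling 15 of the 31 genes (48.4%) were called higher and none lower, against 78.8% higher and 1.65% lower of all 11344 genes tested. Acadm (0.094), Acadvl (0.23), Hadha (0.30) and Ech1 (0.16) then had small positive values that did not pass, and Angptl4 (-0.13) alone of the 5 stayed negative, also without passing. The median of the 31 genes lay 0.29 log2 units below that of all genes under either scaling (-0.32 against -0.04, and 0.43 against 0.72), which follows from the single shift that spike-in scaling adds to all genes of an array. The gap was 0.18 with quantile normalization, 0.22 with normexp background correction and 0.17 without vehicle rat 1. The falls described here are therefore falls relative to the other genes of the same array. The rises of Cd36 (2.00 with spike-in scaling) and Acaa1b (1.38) passed under both scalings.

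**Figure D1:**
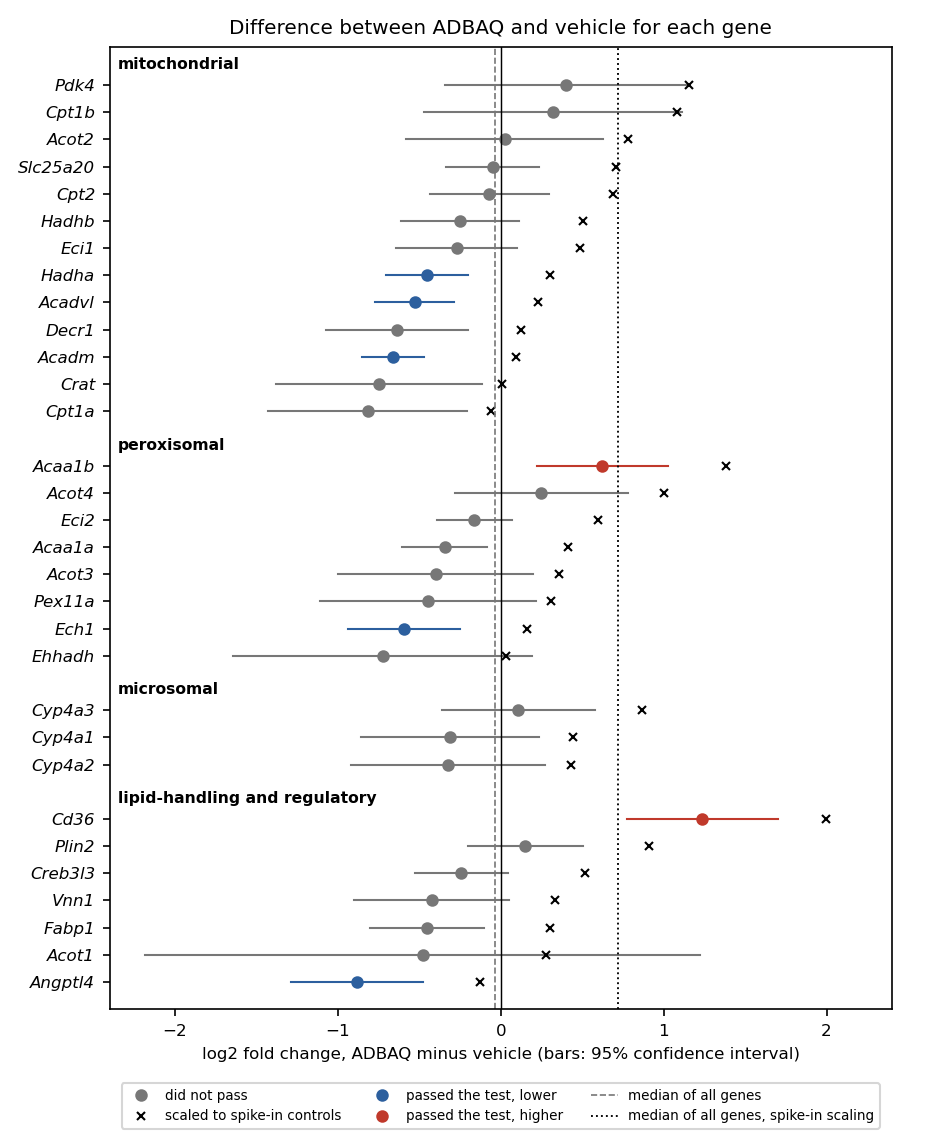
Log2 fold change of each of the 31 genes, ADBAQ minus vehicle, with its 95% confidence interval (horizontal axis, log2 units; points with bars), and the same value scaled to the spike-in controls (crosses). Cd36 and Acaa1b lie above 0 under both scalings, whereas the 5 genes that fell relative to the 75th percentile move to between -0.13 and 0.30 with the spike-in controls, where the median of all genes moves to 0.72.

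The response element of PPAR alpha is a direct repeat of AGGTCA with 1 base between the copies. To show what lies upstream of the genes, promoters of 300 bases (250 before and 50 after the start site, RefSeq, build GRCr8) were found for 26 of the 31 genes, and both strands were searched for that repeat (AGGTCA, any base, AGGTCA) with up to 2 mismatches among its 12 fixed letters. A match was present in 6 of the 26 (23.1%; Acadvl, Acot4, Fabp1, Crat, Creb3l3 and Slc25a20) and in 3.77% of all 33469 promoters. The genes had been chosen as targets of this receptor, so the higher share is a description of the choice, and no match says only that these letters are not in this window. The promoters of Acadvl, Fabp1 and Acot4 are printed because theirs were the matches with 1 mismatch, and those of Cd36 and Angptl4 because these genes had the largest rise and the largest fall. Capitals mark the match, which began 17 bases before the start site in Acadvl (forward), 77 in Fabp1 (reverse) and 13 in Acot4 (reverse). The windows are chr10:55236656-55236955, minus strand (Acadvl); chr4:104749090-104749389, plus strand (Fabp1); chr6:109399604-109399903, plus strand (Acot4). Those of the other pair are chr4:18246332-18246631, plus strand (Cd36) and chr7:15258632-15258931, minus strand (Angptl4).
Acadvl: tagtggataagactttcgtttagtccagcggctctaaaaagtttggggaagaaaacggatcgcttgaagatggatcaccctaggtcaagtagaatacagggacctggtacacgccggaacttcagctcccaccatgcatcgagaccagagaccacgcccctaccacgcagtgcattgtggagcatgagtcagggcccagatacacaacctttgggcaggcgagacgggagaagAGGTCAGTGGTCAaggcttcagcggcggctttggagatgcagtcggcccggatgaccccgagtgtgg
Fabp1: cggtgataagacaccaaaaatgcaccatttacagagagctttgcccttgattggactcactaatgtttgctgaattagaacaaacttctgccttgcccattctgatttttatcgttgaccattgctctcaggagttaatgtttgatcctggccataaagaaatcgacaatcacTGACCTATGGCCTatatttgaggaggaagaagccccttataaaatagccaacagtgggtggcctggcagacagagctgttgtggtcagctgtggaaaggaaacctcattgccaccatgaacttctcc
Acot4: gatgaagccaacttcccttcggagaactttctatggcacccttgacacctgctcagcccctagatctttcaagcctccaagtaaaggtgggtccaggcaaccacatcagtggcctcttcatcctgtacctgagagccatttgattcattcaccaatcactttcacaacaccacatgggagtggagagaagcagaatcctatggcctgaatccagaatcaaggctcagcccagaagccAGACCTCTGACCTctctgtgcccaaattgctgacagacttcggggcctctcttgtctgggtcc
Cd36: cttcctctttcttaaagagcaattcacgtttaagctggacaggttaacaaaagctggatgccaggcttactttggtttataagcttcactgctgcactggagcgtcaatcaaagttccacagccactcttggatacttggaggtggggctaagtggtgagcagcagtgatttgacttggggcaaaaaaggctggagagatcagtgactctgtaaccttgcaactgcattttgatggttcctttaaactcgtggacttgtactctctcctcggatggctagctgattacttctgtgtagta
Angptl4: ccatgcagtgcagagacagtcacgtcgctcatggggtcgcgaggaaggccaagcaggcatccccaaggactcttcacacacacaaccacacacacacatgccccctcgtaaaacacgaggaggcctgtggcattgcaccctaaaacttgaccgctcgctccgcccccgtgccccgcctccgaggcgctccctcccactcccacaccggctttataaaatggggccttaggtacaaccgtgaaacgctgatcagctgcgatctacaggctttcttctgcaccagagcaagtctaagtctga

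Of the 6 genes with a match, Acadvl fell relative to the 75th percentile, as did 11.3% of all genes. Fabp1 (-0.45), Crat (-0.75), Creb3l3 (-0.24), Slc25a20 (-0.05) and Acot4 (0.25) did not pass the test. With spike-in scaling Acot4 (1.00), Slc25a20 (0.71) and Creb3l3 (0.51) were called higher, as were 78.8% of all genes. Acadvl (0.23), Fabp1 (0.30) and Crat (0.0097) did not pass there. Cd36 and Angptl4, with the largest rise and the largest fall relative to the 75th percentile, had no match in the window searched. With spike-in scaling Angptl4 (-0.13, adjusted p = 0.483) did not pass. It still had the lowest value of the 31 genes there, where the median of all genes was 0.72.

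In the microsomes, Cyp4a1, Cyp4a2 and Cyp4a3, the fatty acid omega-hydroxylases that PPAR alpha agonists induce in rat liver, did not pass the test in either direction, and their values in every rat are given because they are the standard readout of this receptor. Cyp4a1 had 6.40, 6.14 and 5.86 in ADBAQ rats 1 to 3 and 6.66, 6.67 and 6.01 in vehicle rats 1 to 3. Cyp4a2 had 8.72, 9.16 and 8.46 in ADBAQ and 8.90, 8.88 and 9.53 in vehicle. Cyp4a3 had 7.87, 8.21 and 8.17 in ADBAQ and 7.82, 7.73 and 8.36 in vehicle. The groups overlapped for all 3 genes. Vehicle rat 3 was the lowest vehicle rat for Cyp4a1 and the highest for Cyp4a2 and Cyp4a3, so the family did not vary together among the controls. The difference was -0.31 ± 0.23 for Cyp4a1 (adjusted p = 0.365), with a 95% confidence interval of -0.86 to 0.24. It was -0.32 ± 0.25 for Cyp4a2 (adjusted p = 0.387; interval -0.92 to 0.27) and 0.11 ± 0.19 for Cyp4a3 (adjusted p = 0.723; interval -0.36 to 0.58). No interval reached above 0.58 log2 units relative to the 75th percentile. With spike-in scaling the values were 0.45, 0.43 and 0.86, and that of Cyp4a3 passed (adjusted p = 0.0041). Cyp4a2 and Cyp4a3 are close paralogs, and probe sequences were not used here, so signal shared between them cannot be separated.

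In the mitochondria, none of 13 genes rose (9.05% of all genes did) and 3 fell, with a median difference of -0.27 (0.49 with spike-in scaling). All ADBAQ values lay below all vehicle values in 6 of them. Thus 23.1% fell and 46.2% separated downwards, against 11.3% and 25.1% of all genes. Acadm, the medium-chain acyl-CoA dehydrogenase, had 6.46, 6.42 and 6.46 in ADBAQ and 7.11, 7.14 and 7.08 in vehicle. The rats of each group lay close together and the groups were far apart, and its within-group SD of 0.03 was the smallest of the 31 genes. The difference was -0.66 ± 0.08 (adjusted p = 0.00644), which is 0.632 of the vehicle signal, and it passed with any 1 rat left out (adjusted p 0.0202 to 0.0297). Acadvl, the very-long-chain acyl-CoA dehydrogenase of the inner membrane, had 4.52, 4.54 and 4.29 in ADBAQ and 4.98, 4.97 and 4.99 in vehicle. Here too the groups did not overlap, and ADBAQ rat 3 was the lowest. The difference was -0.53 ± 0.10 (adjusted p = 0.0196), and a second probe gave -0.46 (adjusted p = 0.0203). The call of Acadvl was lost without vehicle rat 2 or 3 or ADBAQ rat 1 or 3, where the adjusted p reached 0.0545 at most.

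Hadha and Hadhb encode the alpha and beta subunits of the mitochondrial trifunctional protein, which carries out the remaining steps on long chains, and in GRCr8 their start sites lie 301 bases apart on chromosome 6, pointing away from each other. Hadha had 3.45, 3.39 and 3.27 in ADBAQ and 3.90, 3.88 and 3.67 in vehicle, with no overlap. Hadhb had 3.38, 3.23 and 3.15 in ADBAQ and 3.76, 3.49 and 3.26 in vehicle, where ADBAQ rat 1 lay above vehicle rat 3. In both genes, ADBAQ rat 3 and vehicle rat 3 were the lowest of their groups. Hadha fell by 0.45 ± 0.10 on the log2 scale (adjusted p = 0.0333), while its other probes, at -0.31 (adjusted p = 0.0792) and -0.33 (adjusted p = 0.088), had the same sign without passing. Without any 1 rat other than vehicle rat 3 the call of Hadha was lost, with an adjusted p of up to 0.0976. Hadhb did not pass (-0.25 ± 0.15, adjusted p = 0.276), and a difference between the 2 subunits was not tested.

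The carnitine shuttle, which brings long chains into the matrix, had no member past the threshold. Cpt1a, its rate-limiting outer membrane enzyme, had 3.85, 3.86 and 3.75 in ADBAQ and 5.10, 4.74 and 4.08 in vehicle. All ADBAQ values lay below vehicle and close together, whereas the vehicle rats were spread over more than 1 log2 unit. The difference was -0.82 ± 0.25 (adjusted p = 0.0702), and it passed without vehicle rat 3 (-1.10, adjusted p = 0.021). Cpt1b, the muscle-type isoform (0.32), the carrier Slc25a20 (-0.05) and Cpt2, which regenerates the acyl-CoA (-0.07), had adjusted p values of 0.517 to 0.788. With spike-in scaling Cpt1b (1.08, adjusted p = 0.0232), Slc25a20 (0.71, adjusted p = 0.00265) and Cpt2 (0.69, adjusted p = 0.00548) were called higher, as were 78.8% of all genes. Cpt1a (-0.061) did not pass there. Of the 3 probes of Cpt1b, 2 were not well above background on all arrays of either group. Crat, the short-chain carnitine acetyltransferase, lay lower in all ADBAQ rats than in all vehicle rats without passing (-0.75 ± 0.26, adjusted p = 0.0952).

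Of the auxiliary enzymes of unsaturated chains, Decr1, the 2,4-dienoyl-CoA reductase, had 7.15, 6.91 and 6.69 in ADBAQ and 7.81, 7.57 and 7.27 in vehicle. The groups did not overlap, but the difference just missed the threshold (-0.64 ± 0.18, adjusted p = 0.0569). Decr1 did pass with normexp background correction, with all 6 arrays required to be well above background and with trend and robust eBayes. It also passed with array weights and with a replicate block. It passed as well where the probes of each gene were averaged before the test, but Decr1 has only 1 probe, so its own values were the same there. Eci1, an enoyl-CoA isomerase, had -0.27 (adjusted p = 0.256). Acot2, a thioesterase that splits acyl-CoA in the matrix, stood at 0.02 (adjusted p = 0.955). Pdk4, the kinase that switches off pyruvate dehydrogenase when fat is burned, had 0.40 ± 0.31 (adjusted p = 0.389), with the lowest value in vehicle rat 1 and the highest in ADBAQ rat 1. With spike-in scaling Eci1 (0.49), Acot2 (0.78) and Pdk4 (1.16) were called higher, as were 78.8% of all genes.

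**Figure D2:**
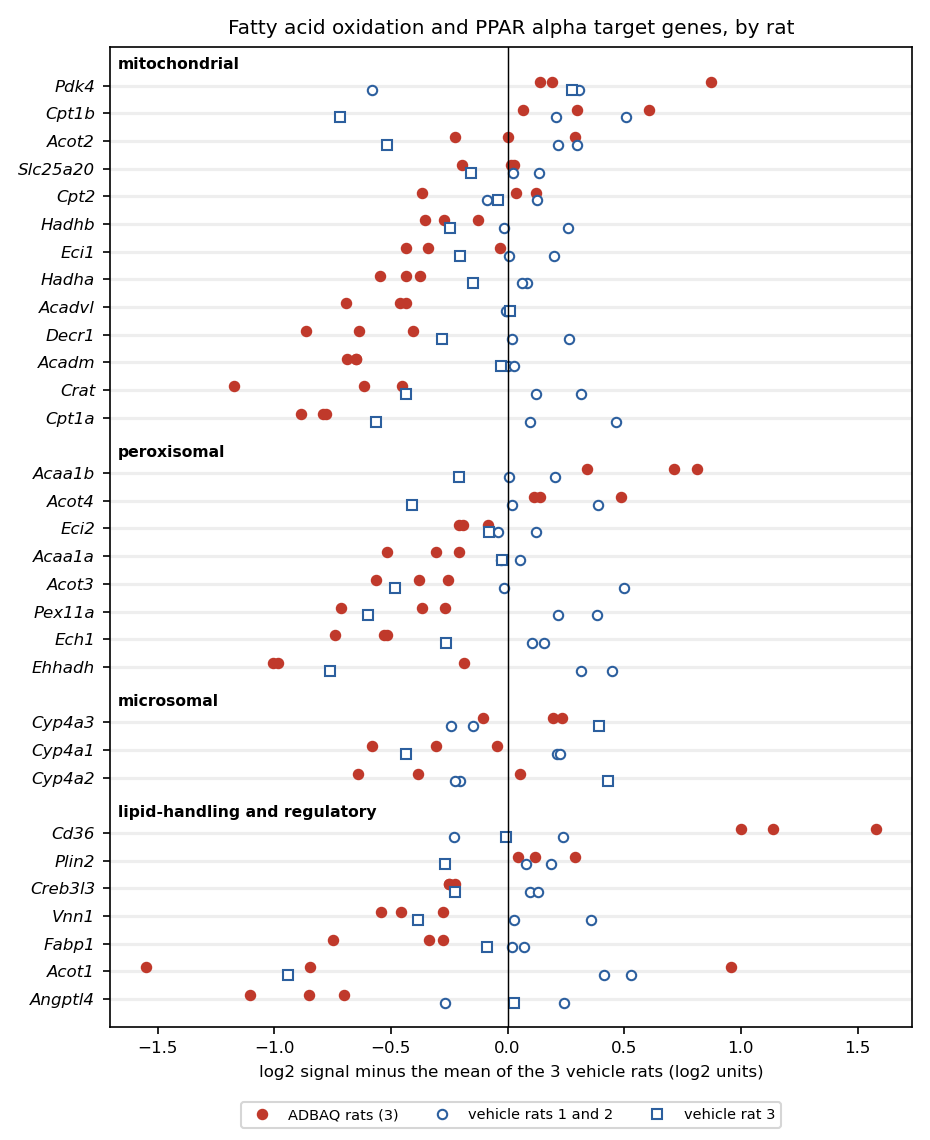
Log2 signal of each of the 31 genes in each rat relative to the array's 75th percentile, minus the mean of the 3 vehicle rats (horizontal axis, log2 units), with ADBAQ rats as filled points above and vehicle rats as open points below on each line. ADBAQ values lie clear of vehicle values on the high side for Cd36 and Acaa1b and on the low side for 11 genes, and vehicle rat 3 (squares) is the lowest vehicle rat in 23 of the 31 genes.

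In the peroxisomes, 1 of 8 genes rose and 1 fell, with a median difference of -0.37 (0.38 with spike-in scaling). Each count is 12.5%, near the 9.05% of all genes that rose and the 11.3% that fell. Ech1, a dienoyl-CoA isomerase found in peroxisomes and mitochondria, had 5.74, 5.72 and 5.51 in ADBAQ and 6.41, 6.36 and 5.99 in vehicle. The groups did not overlap, and rat 3 was the lowest in each. Ech1 fell by 0.60 ± 0.14 on the log2 scale (adjusted p = 0.0367), a call lost without any 1 rat other than vehicle rat 3 (adjusted p up to 0.103). Its relative Eci2, a peroxisomal enoyl-CoA isomerase, had 5.38, 5.26 and 5.28 in ADBAQ and 5.59, 5.42 and 5.39 in vehicle, which gave -0.16 ± 0.10 (adjusted p = 0.272). Ehhadh, the bifunctional enzyme of the classical peroxisomal pathway and a strong PPAR alpha target, had 4.16, 3.36 and 3.34 in ADBAQ and 4.65, 4.79 and 3.58 in vehicle. ADBAQ rat 1 lay above vehicle rat 3, and the difference of -0.72 ± 0.38 did not pass (adjusted p = 0.221).

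Acaa1a and Acaa1b encode the paired 3-ketoacyl-CoA thiolases of the rat peroxisome, which close the oxidation cycle. Acaa1b had 8.75, 8.37 and 8.84 in ADBAQ and 8.23, 8.04 and 7.82 in vehicle, with no overlap. It rose by 0.62 ± 0.17 (1.54-fold, adjusted p = 0.0488), and its other probes gave 1.12 (adjusted p = 0.0458) and 0.59 (adjusted p = 0.109, with overlapping groups). The rise was lost without any 1 rat other than ADBAQ rat 2, with an adjusted p of up to 0.135. The brightest probe of Acaa1a, which stands for that gene, had 8.06, 8.16 and 7.85 in ADBAQ and 8.42, 8.34 and 8.35 in vehicle. It lay lower in ADBAQ without passing (-0.34 ± 0.11, adjusted p = 0.0714), but the remaining probes of the same gene lay higher in all ADBAQ rats, at 0.74 (adjusted p = 0.0439) and 0.58 (adjusted p = 0.0545). After each probe was centred on its own mean, those probes followed the Acaa1b probe within 0.13 and 0.095 log2 units in every rat, whereas the brightest Acaa1a probe departed from it by up to 0.85. The sign of Acaa1a therefore depends on the probe, and the counts over the 31 genes and the plots take it by its brightest probe. How far its probes bind Acaa1b RNA was not tested.

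**Figure D3:**
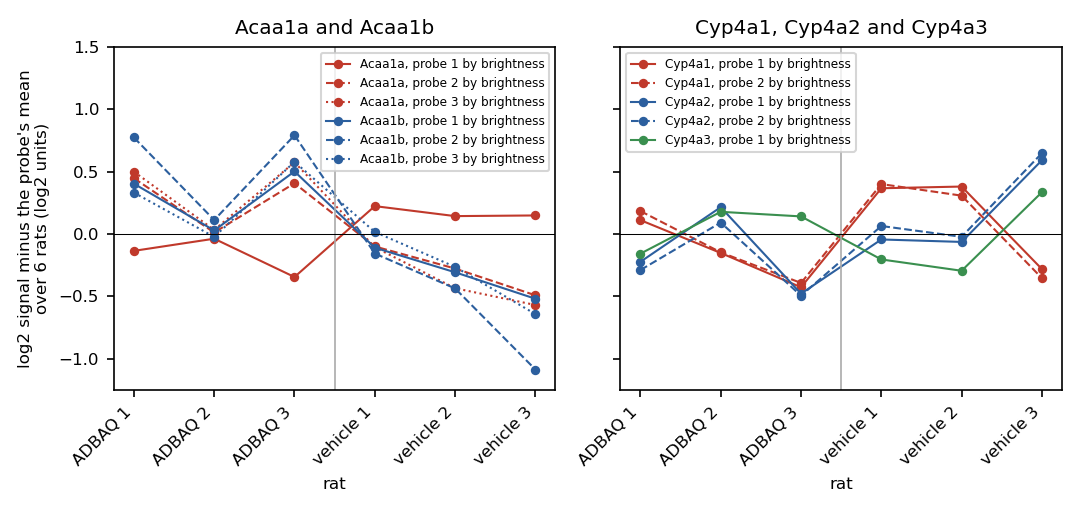
Log2 signal of each measured probe in each rat minus the probe's mean over the 6 rats (vertical axis, log2 units), ADBAQ rats left and vehicle rats right of the grey line, for the Acaa1 thiolases (left) and the Cyp4a family (right). All probes of Acaa1a and Acaa1b but the brightest Acaa1a probe follow one pattern, higher in ADBAQ with a dip in ADBAQ rat 2, and Cyp4a1 runs opposite to Cyp4a2 and Cyp4a3 in vehicle rat 3.

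Among the other peroxisomal genes, the acyl-CoA thioesterases Acot3 (-0.40, adjusted p = 0.291) and Acot4 (0.25, adjusted p = 0.457) did not pass. All 3 probes of Acot4, whose promoter holds a match to the repeat, had small positive values of 0.23 to 0.29. Pex11a, which drives peroxisome division, had -0.45 ± 0.27 on its brightest probe (adjusted p = 0.287), and its other probes had -0.50 and 0.07. Of the 14 genes with several measured probes, Acaa1a and Pex11a were the pair whose probes differed in sign, and the other 12 had all probes in one direction.

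Outside the oxidation chains, 1 of 7 lipid-handling and regulatory genes rose and 1 fell, with a median of -0.43 (0.33 with spike-in scaling). Each count is 14.3%, where 9.05% of all genes rose and 11.3% fell, so the counts alone do not set these 7 genes apart. Cd36 had 4.18, 3.74 and 3.60 in ADBAQ and 2.84, 2.37 and 2.59 in vehicle. The lowest ADBAQ rat lay well above the highest vehicle rat. Cd36 rose by 1.24 ± 0.19 (2.36-fold, adjusted p = 0.0116), the largest difference of the 31 genes, and passed with any 1 rat left out (adjusted p 0.0227 to 0.0397). Its other probes gave 1.18 (adjusted p = 0.012) and 1.22 (adjusted p = 0.01).

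Cd36 is also made by macrophages, adipocytes, muscle and endothelium, so markers of these cells were read beside it. Relative to the 75th percentile none of 7 macrophage markers passed, and their summed linear signal was 76.3 to 87.8 in ADBAQ and 70.1 to 88.1 in vehicle. That sum mostly follows Clec4f, the brightest of the 7 (mean 5.75 in ADBAQ and 5.71 in vehicle), and says little of the dimmer markers. Among those, Adgre1 lay higher in all ADBAQ rats than in all vehicle rats without passing (0.21, adjusted p = 0.236), as 21.2% of all genes did. None of 4 endothelial markers passed, with sums of 30.5 to 34.8 in ADBAQ and 37.2 to 41.1 in vehicle, lower in all ADBAQ rats. Of 4 adipocyte markers with a probe, 2 were measured and neither passed, and Adipoq and Lep were not well above background on any array. The adipocyte sums were 5.53 to 8.91 in ADBAQ and 6.52 to 9.73 in vehicle. They mostly follow Cfd (mean 2.80 in ADBAQ and 3.03 in vehicle), as the endothelial sums follow Kdr (4.76 and 5.04), and say little of the dimmer markers. Of 8 muscle markers with a probe, Actn3 fell, Myh1 and Myh6 were not well above background on any array, and the sums were 0.964 to 1.29 in ADBAQ and 0.716 to 1.16 in vehicle. None of 5 stellate cell and 5 leukocyte markers passed. Without passing, the leukocyte marker Ptprc lay higher in all ADBAQ rats (0.24, adjusted p = 0.175). The stellate cell markers Lrat (-0.54) and Acta2 (-0.31) lay lower in all of them. With spike-in scaling, where 78.8% of all genes were called higher, so were all 7 macrophage markers (0.70 to 1.16, against 2.00 for Cd36), all 4 endothelial markers (0.43 to 0.82), all 5 leukocyte markers, 4 of 5 stellate cell, 4 of 5 measured muscle and 1 of 2 measured adipocyte markers. Relative to the 75th percentile, no sum given so far was higher in all ADBAQ rats than in all vehicle rats. Sums did separate upwards for 4 cholangiocyte markers with a probe (2.33 to 3.72 in ADBAQ and 1.49 to 1.81 in vehicle). Of these, Epcam rose, and Krt7 fell by 0.61 on the log2 scale but had 0.14 with spike-in scaling. Krt19 (0.62, adjusted p = 0.0644) and Spp1 (1.03, adjusted p = 0.123) lay higher in all ADBAQ rats without passing. The sum also separated upwards for the erythroid Alas2 (3.67 to 6.68 in ADBAQ and 1.38 to 2.26 in vehicle). The part of cholangiocyte and erythroid markers in the differences given here was not tested.

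Angptl4, a secreted inhibitor of lipoprotein lipase and a PPAR target in many tissues, had 5.75, 5.50 and 5.90 in ADBAQ and 6.33, 6.84 and 6.63 in vehicle, with no overlap. It fell by 0.88 ± 0.17 on the log2 scale (to 0.542 of the vehicle signal, adjusted p = 0.0196), the largest fall of the 31 genes, and its second probe gave -1.0 (adjusted p = 0.0169). The call was lost without vehicle rat 3 or ADBAQ rat 1 or 2 (adjusted p up to 0.061). Angptl4 was 1 of only 3 of the 31 genes in which vehicle rat 1 was the lowest vehicle rat. Fabp1, the liver fatty acid binding protein, had 10.10, 10.04 and 9.63 in ADBAQ and 10.39, 10.45 and 10.29 in vehicle. Its groups did not overlap, but -0.45 ± 0.15 did not pass (adjusted p = 0.0778), and its second probe gave -0.31 (adjusted p = 0.0855).

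Plin2, the coat protein of lipid droplets, had 0.15 ± 0.15 (adjusted p = 0.494), with a confidence interval of -0.20 to 0.50. With spike-in scaling Plin2 (0.91, adjusted p = 0.00227) was called higher, as were 78.8% of all genes. Vnn1, a pantetheinase that PPAR alpha induces in mouse liver, had -0.43 ± 0.20 (adjusted p = 0.176). Creb3l3, a transcription factor that works with PPAR alpha in the fasted mouse, had -0.24 ± 0.12 (adjusted p = 0.195). Acot1, the cytosolic thioesterase, was the most variable of the 31 genes, with 3.55, 1.04 and 1.75 in ADBAQ and 3.12, 3.00 and 1.65 in vehicle. Both groups held rats near each extreme, and the difference of -0.48 ± 0.71 (adjusted p = 0.663) left an interval of -2.18 to 1.23. Changes larger than a doubling, in either direction, lie within it.

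The 31 genes varied more between rats of one group than genes in general. Their median within-group SD was 0.25 log2 units, against 0.16 for all genes tested, and ranged from 0.03 (Acadm) to 1.08 (Acot1). Relative to the vehicle mean, the median of the 31 genes was -0.19, -0.27 and -0.46 in ADBAQ rats 1 to 3 and 0.20, 0.07 and -0.23 in vehicle rats 1 to 3, so that vehicle rat 3 lay between ADBAQ rats 1 and 2. ADBAQ rat 3 was the lowest ADBAQ rat in 18 of the 31 genes (33.7% of all genes), and vehicle rat 3 the lowest vehicle rat in 23 (34.3% of all genes). With 1 rat left out the median difference of the 31 genes ran from -0.39 (without ADBAQ rat 1) to -0.21 (without vehicle rat 1), in place of -0.32.

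**Figure D4:**
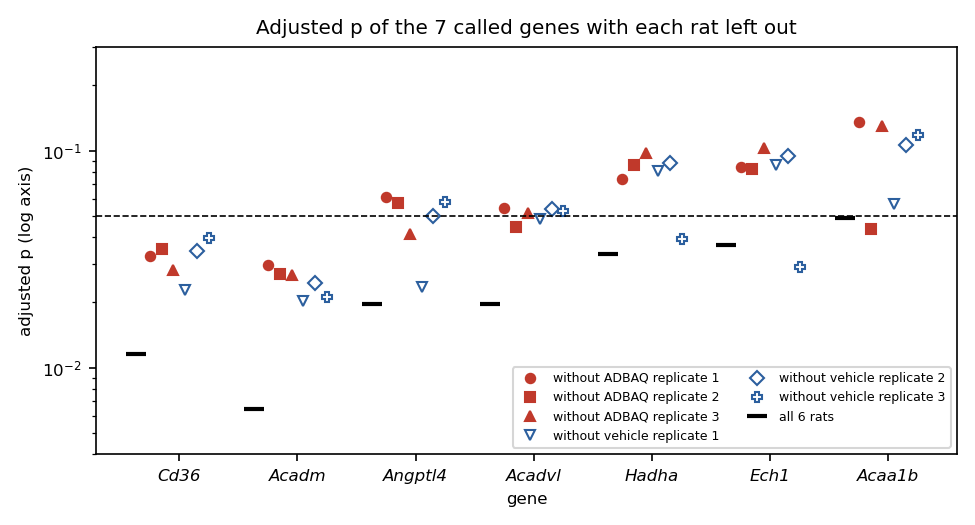
Adjusted p of the 7 genes that passed the test (vertical axis, log scale; dashed line at 0.05), with all 6 rats (bars) and with each rat left out (red for ADBAQ, blue for vehicle). Cd36 and Acadm stay below 0.05 throughout, and the other 5 genes cross it without at least 3 of the rats.

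With 1 rat left out, 1 to 2 of the 31 genes were called higher and 1 to 4 lower, and the called genes of the whole array numbered 922 to 1565 in place of 2308. Cd36 and Acadm were thus the pair of the 31 genes whose calls did not rest on any 1 rat.

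Genes of the same pathways outside the 31 were read from a list of 64, of which 62 had a probe and 59 were measured. Of these 59, 3 rose (5.08%, against 9.05% of all genes) and 15 fell (25.4%, against 11.3%), with a median of -0.23. With spike-in scaling 42 were higher (71.2%, against 78.8% of all genes), 1 was lower and the median was 0.53. Expression of the receptor itself did not pass the test. Ppara had -0.43, 0.93 and 1.11 in ADBAQ and 1.66, 1.09 and 1.38 in vehicle. ADBAQ rat 1 was far below the rest and ADBAQ rat 3 lay above vehicle rat 2, which gave -0.85 ± 0.42 (adjusted p = 0.197). Its partner Rxra, the retinoid X receptor alpha, had -1.22, -0.99 and -1.01 in ADBAQ and -0.20, -0.25 and -0.18 in vehicle. The groups of Rxra were far apart, and it fell by 0.86 ± 0.10 on the log2 scale (adjusted p = 0.00573), or -0.11 without passing under spike-in scaling.

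Of the enzymes in that list, Crot, the peroxisomal carnitine octanoyltransferase that exports shortened chains, fell by 1.16 ± 0.10 on the log2 scale (adjusted p = 0.00309) and was lower under spike-in scaling too (-0.40, adjusted p = 0.0166). Hadh, the mitochondrial short-chain hydroxyacyl-CoA dehydrogenase, had -0.80 ± 0.10 (adjusted p = 0.00803), Acsl1, the main acyl-CoA synthetase of liver, -0.71 ± 0.11 (adjusted p = 0.0111) and Cyp4f4, a P450 of leukotriene and fatty acid hydroxylation, -0.69 ± 0.10 (adjusted p = 0.0109). With spike-in scaling these stood at -0.046, 0.048 and 0.064 and did not pass. Acox2, the peroxisomal oxidase of bile acid precursors, had 1.69, 2.24 and 2.57 in ADBAQ and 3.47, 5.08 and 3.60 in vehicle. Vehicle rat 2 was far above the rest, Acox2 fell by 1.88 ± 0.46 on the log2 scale (adjusted p = 0.0396), and its call was lost without vehicle rat 3 or any 1 ADBAQ rat (adjusted p up to 0.114). Others that fell relative to the 75th percentile included Slc27a2, Txnip, Acaa2, Etfb, Etfdh, Acox3, Hsd17b4 and Acads.

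The genes of that list that rose were Fgf21, Me1 and Lpl. Fgf21, a liver hormone that fasting and PPAR alpha raise in mice, had 5.54, 4.99 and 4.39 in ADBAQ and 0.69, 3.00 and 2.60 in vehicle, with no overlap and with vehicle rat 1 far below the others. It rose by 2.88 ± 0.63 (7.37-fold, adjusted p = 0.0288), a call lost without vehicle rat 3 or any 1 ADBAQ rat (adjusted p up to 0.0888). The fold was 4.53 without vehicle rat 1 and 10.1 without vehicle rat 2. Me1, the malic enzyme that supplies NADPH for fat synthesis, rose by 1.30 ± 0.21 (2.46-fold, adjusted p = 0.0134). Lpl, lipoprotein lipase, rose by 0.81 ± 0.12 (1.75-fold, adjusted p = 0.0114). All 3 were also higher under spike-in scaling.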

How the data were processed

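Liver RNA of 6 rats, which the treatment protocol describes as separate animals, was measured on 1-colour arrays. Per the file headers, the software was Agilent Feature Extraction 10.7.1.1 (10.7 per the submitters' processing notes), with an array design built on rn4. In the deposited scanner files the intensity columns are the processed signal, already background-subtracted by Feature Extraction, and the median signals of spot and local background. Their flags (well above background, saturated, outlier) are of the kind other and were deposited with them, per the file headers. The deposited series table is a ratio made by the authors: set against the scanner values, it equals the processed signal over the array's 75th percentile, linear and not centred on genes, so it is no independent check. Its column medians were 0.0929, 0.0971 and 0.0952 for ADBAQ and 0.0967, 0.097 and 0.0982 for vehicle. That percentile lay at 643, 570 and 596 (ADBAQ) and 455, 461 and 433 (vehicle).

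Values are log2 of the processed signal over the array's 75th percentile, with 0 to 2 outlier spots per array left out and 1319 control spots set aside. The test was limma's (lmFit and eBayes, limma 3.58.1, R 4.3.3) over the 38695 probes that every array of one group or both read as well above background, with Benjamini-Hochberg adjustment and a threshold of 0.05. SEs are eBayes values, moderated across probes. RefSeq accessions named 27460 probes of 15284 genes, and the probe with the highest mean signal stands for a gene. The fitting step was tested on simulated data with independent noise for each probe. Those data held no slide effect and no variation shared between genes, so that test does not cover either.

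The members and gene lists were chosen with earlier results of these data known. Values in every rat were to be given for members that passed and for their relatives and complex partners, and, of the other pathway genes, up to 12 were named: the 6 largest called changes in each direction and a few fixed by name, among them Ppara and Fgf21. Some genes of that list are not reported here, though its counts include them. The values in every rat of the Cyp4a genes, Cpt1a, Decr1, Ehhadh, Fabp1 and Acot1, and of the other pathway genes, and the names of further called genes were added after their values were seen. Alternatives were normexp background correction (offset 50, on the median spot signal, in place of the mean), quantile normalization, median centring, scaling to 8 spike-in probes, 2 other filters on dim probes, the series table, trend and robust eBayes, array weights, a replicate block, the mean or the dimmest of a gene's probes, and each array left out. Slide could not be a block, because each slide held 1 group. Over all probes kept, same-numbered rats did not deviate together, and the replicate number was used only as an alternative block.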

Additional observations from a re-analysis of the deposited data

How the results depend on the processing

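The counts moved most with the scaling. With spike-in scaling 15 of the 31 genes were called higher and 0 lower (the tool was limma in each case), 9124 of all genes (97.95% higher, against 44.5% of 2308), and 42 higher and 1 lower of the other pathway genes. The medians were then 0.43 (all 31), 0.49 (mitochondrial), 0.38 (peroxisomal), 0.45 (microsomal), 0.33 (lipid-handling and regulatory), 0.53 (other pathway genes) and 0.72 (all genes). Of the members that were negative, spike-in scaling gave positive values for Cpt2 0.69, Slc25a20 0.71, Acadm 0.094, Acadvl 0.23, Hadha 0.30, Hadhb 0.51, Decr1 0.12, Eci1 0.49, Crat 0.0097, Ehhadh 0.032, Acaa1a 0.41, Ech1 0.16, Eci2 0.59, Acot3 0.36, Pex11a 0.31, Cyp4a1 0.45, Cyp4a2 0.43, Fabp1 0.30, Vnn1 0.33, Acot1 0.28 and Creb3l3 0.51. Of the other genes it did so for Acsl1 0.048 and Cyp4f4 0.064. These turns follow from the construction of spike-in scaling, which adds one shift to all genes of an array. Of the members that turned, Cpt2, Slc25a20, Hadhb, Eci1, Acaa1a, Eci2 and Creb3l3 were called higher there. So were Cpt1b 1.08, Acot2 0.78, Pdk4 1.16, Acot4 1.00, Cyp4a3 0.86 and Plin2 0.91, which had been positive without passing.

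Normexp background correction called 9 of the 31 lower and 4041 of all genes (34.5% higher), and turned Cpt2 to 0.0022, Slc25a20 to 0.073 and Acot2 to -0.051. Quantile normalization put Slc25a20 at 0.0061 and the medians of the lipid-handling genes and the other pathway genes both at -0.13. No filter on dim probes called 3530 of all genes (32.4% higher) and 1 of the 31 higher, as did array weights, averaging the probes of each gene, and the replicate block, each of which lost Acaa1b. Trend and robust called 8 lower. Array weights put Acot2 at -0.034. Acaa1a was 0.32 by the mean of its probes and 0.74 by its dimmest. The causes were not tested.

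With a replicate block 982 of all genes were called, 6 of the other pathway genes lower, and Acaa1b, Acadvl, Angptl4 and Hadha were lost while Crat and Decr1 were gained. Over all probes kept, the deviations of same-numbered rats from their group means were not correlated (-0.03, -0.02 and -0.0046). Those correlations do not speak for the 31 genes alone. The median of the 31 genes fell from rat 1 to rat 3 in both groups (0.20, 0.07 and -0.23 in vehicle, -0.19, -0.27 and -0.46 in ADBAQ). Whether the numbers pair the rats for these genes was not tested. With 1 rat left out, the ranges were 922 to 1565 called of all genes, 1 to 2 higher and 1 to 4 lower of the 31, 5 to 7 lower of the other pathway genes, and -0.50 to -0.21 for the median of the lipid-handling genes. The sign turned for Acot1 (-1.20 to 0.056), Acot2 (-0.24 to 0.17), Cpt1b (-0.036 to 0.58), Cpt2 (-0.16 to 0.079), Cyp4a3 (-0.012 to 0.30) and Slc25a20 (-0.13 to 0.021), none of them called. Cd36 and Acadm passed in every alternative named here except Acadm with spike-in scaling. The number of arrays, on 1 slide per group, limits the precision.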
